A study of Homo sapiens with 2 samples.

Results

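The entries described here are the rows of a mature microRNA (miRNA) array table whose single miRBase accession (MIMAT number) lies in the block from 0004481 to 0004615, with 0004609 left out. The block was chosen as one that holds mostly the star, or passenger, arms of long-known human miRNAs, from let-7a* on. It holds 93 of the 1001 rows, and the other 908 rows are the comparison. The table pairs no accession with a name, and neither do the RefSeq tables used here. That description could therefore not be checked row by row, no member is named, and no member was set against the other arm of its own hairpin.

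The treated array carried RNA from Huh7 cells, an established human hepatocellular carcinoma line, kept for 12 hours with the kinase inhibitor Y27632 at 10 µM. The control array carried RNA from Huh7 cells labelled only as control, with no vehicle or harvest time stated. Culture was in Dulbecco's medium plus fetal bovine serum, and total RNA was labelled with the dye Hy5. Each condition is 1 array of 1 cell line, so values come without replicate error, no test was possible, and every difference describes these 2 arrays. Markers of liver and of other cell types could not be looked up, for want of names.

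A miRNA gene is transcribed as a hairpin, from which the enzymes Drosha and Dicer cut a short duplex with 1 strand from each side of the stem. An Argonaute protein keeps 1 strand as the guide, which pairs with messenger RNAs mainly through its seed, and the opposite or passenger strand is usually degraded. For most long-known miRNAs the passenger strand, once written with a star, is therefore the scarcer of the pair, although for some genes both arms persist. Because the seed lies near the 5′ end of each strand, the arms of 1 hairpin have different sets of targets.

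The hairpin of let-7a, the miRNA with whose star arm the block is said to begin, shows what the 2 arms are. It is MIRLET7A1, at chr9:94175957-94176036 on the plus strand of GRCh38.p14, and the sequences are RefSeq's. In the hairpin the capitals mark the 2 mature arms, and in the arms they mark the seed (bases 2 to 8). No intensity below is assigned to these sequences.
MIRLET7A1: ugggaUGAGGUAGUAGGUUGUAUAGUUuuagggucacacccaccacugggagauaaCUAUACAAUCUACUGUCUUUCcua
hsa-let-7a-5p: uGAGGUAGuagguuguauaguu
hsa-let-7a-3p: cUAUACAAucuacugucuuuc
The 5p arm is the long-known guide, and the 3p arm is the strand once written as let-7a*. Their sequences differ, as do their seeds, GAGGUAG and UAUACAA, so an array has to probe the strands separately.

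A smaller share of the opposite-arm entries than of the other rows had a value, on both arrays. The arms of the other rows could not be looked up either, so this is not a comparison of passenger with guide strands. The Y27632 array listed 49 of the 93 members (52.7%), against 565 of the 908 other rows (62.2%). The control array listed 53 members (57.0%), against 566 other rows (62.3%). The difference in share, members minus other rows, was −9.54 percentage points on the Y27632 array and −5.35 on the control array. A cell without a value is called not listed, because the sources used here do not say whether it marks low signal or a rejected spot.

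Listing differed between the arrays among the members and among the other rows. Both arrays listed 40 members (43.0%), the Y27632 array alone 9 (9.68%), the control array alone 13 (14.0%), and neither array 31 (33.3%). Of the other rows, both arrays listed 479 (52.8%), the Y27632 array alone 86 (9.47%), the control array alone 87 (9.58%), and neither 256 (28.2%). The members' share was near that of the other rows for the Y27632 array alone and higher for the control array alone. Of the members listed on the control array, 75.5% were also listed on the Y27632 array, against 84.6% of the other rows. Of those listed on the Y27632 array, 81.6% of the members and 84.8% of the other rows also had a control value.

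**Figure D1:**
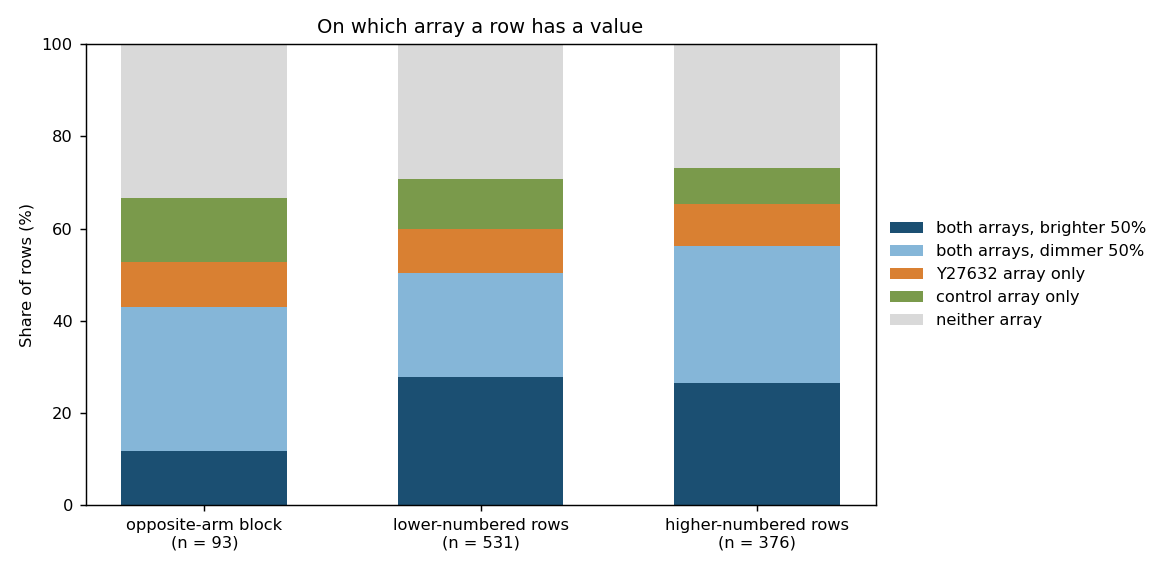
Share of rows (percent, vertical axis) by the array on which a value was listed, for the opposite-arm block and for rows with lower and higher accession numbers. Rows listed on both arrays are split at the median brightness of all such rows: the upper class holds 11.8% of the block, 27.9% of the lower-numbered and 26.6% of the higher-numbered rows.

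The members with a value on 1 array alone read 6.5 or less. The 9 listed on the Y27632 array alone read between 2.8 and 4.4 (median 3.4). The 13 listed on the control array alone read between 2.3 and 6.5 (median 3.4). The lowest value listed for any row was 2.7 on the Y27632 array and 2.3 on the control array, and the median listed value of any row was 6.1 and 6.0 in the same order. A single one of these members, at 6.5 on the control array, was above the median of its array. No fold is given for them. Every member that read 10 or more on 1 array was listed on the other as well.

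Listed members were also dimmer than listed other rows. On the Y27632 array their median intensity was 4.7 (quartiles 3.4 and 7.4), against 6.3 for other rows, whose quartiles were 4.1 and 19. On the control array it was 5.2 (quartiles 3.3 and 7.7), against 6.2 (quartiles 3.7 and 19.7). The upper quartile was thus where the members and the other rows lay furthest apart. These are summaries of probe brightness, and brightness that belongs to each probe means that they do not rank the miRNAs by abundance.

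Bright members were few. An intensity of at least 10 was reached by 8 members on the Y27632 array (8.60% of 93) and by 9 on the control array (9.68%). Among other rows the shares were 23.2% and 23.5% in the same order of arrays. At least 100 was reached by 1 member on the Y27632 array and by 2 on the control array. The members' summed intensity was 720.8 on the Y27632 array, 0.577% of its total, and 754.7 on the control array, 0.634% of its total. The brightest member supplied 42.7% of the members' sum on the Y27632 array and 39.3% on the control array.

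The other rows were also split into the 531 numbered below the block and the 376 numbered above it, which leaves aside the excepted row. At least 10 was reached on the Y27632 array by 131 lower-numbered and 79 higher-numbered rows. On the control array the shares were 25.2% and 20.7%. The block's shares, both under 10%, were below those of either side. Median listed intensity on the Y27632 array was 6.4 in the lower-numbered and 6.15 in the higher-numbered rows. The lower-numbered rows include most of the longest-registered accessions, since MIMAT numbers broadly follow the order in which miRBase registered the sequences.

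Inside the block the accession numbers fall into 3 runs separated by gaps, with 45.8% to 58.1% of a run listed on the Y27632 array and 54.8% to 58.3% on the control array. The Y27632 array listed 20 of 38 members in the first run, 11 of 24 in the second and 18 of 31 in the third. The control array listed 22, 14 and 17 of them. The runs held 6, 1 and 4 members of the brighter class of rows described next, so bright members were not gathered in a single run. At the edges of the block, the first member read 4.2 on the Y27632 array and was not listed on the control array, and the last was listed on neither. The row just below the block read 45.5 on the Y27632 array and 42.5 on the control array. The row just above it was not listed on the Y27632 array and read 4.6 on the control array. The row left out, numbered 0004609, read 84.0 on the Y27632 array and 73.5 on the control array.

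Treated and control cells were compared by the log2 ratio of Y27632 over control, from the deposited values with nothing added. Of the 519 rows of the table listed on both arrays, the brighter 50% (260 rows with a geometric mean intensity of at least 7.57) were used for counts, because ratios of dim rows scatter more. The members supplied 11 of these 260 rows, and 29 of the 259 dimmer rows. Brightness of a row is its mean log2 intensity over the 2 arrays, and members are ranked by it below.

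None of the 11 brighter members differed by 1.5-fold or more between the arrays, with 0 higher and 0 lower. Over all 260 rows, 1.15% were at least 1.5-fold higher on the Y27632 array and 2.31% at least 1.5-fold lower. At those background shares, no such row among 11 is not a result about the block. At 2-fold the counts were therefore also 0 and 0 for members, against 0% higher and 0.385% lower over all 260 rows.

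The brightest member, MIMAT0004561, read 307.6 on the Y27632 array and 296.9 on the control array (log2 ratio 0.05). It ranked 32 among all rows of the Y27632 array and 30 among those of the control array. It was the only member above 100 on both arrays, and its linear ratio was 1.04. The second, MIMAT0004602, read 90.7 on the Y27632 array and 100.1 on the control array (log2 ratio −0.14). Its geometric mean was 95.3, and that of the member ranked 3 was 30.5.

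The members ranked 3 and 5 read higher on the Y27632 array. Rank 3 read 33.6 on the Y27632 array and 27.6 on the control array (log2 ratio 0.28). Rank 5, MIMAT0004590, read 29.2 on the Y27632 array and 23.1 on the control array. Its log2 ratio of 0.34 was the highest of the 11. Both lay above the range from the 10th to the 90th percentile of the 100 other rows nearest in brightness, which ended at 0.18 for each. The other 9 brighter members lay inside that range. By its construction such a range leaves about 20% of the nearest rows outside, so 2 of 11 is not a result. Of the 29 dimmer members, 6 were counted below their range and 1 above. By construction about 10% of the nearest rows lie below such a range. The same count among other dimmer rows was not made, so whether 6 is many was not tested. Of those 6, 1 sat on the lower bound itself (−0.415 for both).

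Members ranked 4, 6, 7 and 8 read lower on the Y27632 array. Rank 4 read 24.5 on the Y27632 array and 30 on the control array (log2 ratio −0.29). Rank 6 read 18.4 on the Y27632 array and 22.5 on the control array (log2 ratio −0.29). Rank 7 read 13.1 on the Y27632 array and 17.4 on the control array (log2 ratio −0.41). The lowest ratio of the 11 belonged to rank 8, MIMAT0004500, which read 10.6 on the Y27632 array and 14.1 on the control array (log2 ratio −0.41). All 4 stayed short of 1.5-fold.

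The last 3 of the brighter members read 10.0 or less on both arrays. Rank 9 read 9.5 on the Y27632 array and 10.0 on the control array. Rank 10 read 9.5 on the Y27632 array and 7.7 on the control array, and rank 11 read 7.4 and 8.7 in the same order. Their log2 ratios were −0.07, 0.30 and −0.23. In all, 4 of the 11 brighter members read higher on the Y27632 array and 7 lower, with a median log2 ratio of −0.14 (quartiles −0.29 and 0.17). The median of the 249 other brighter rows was −0.03 (quartiles −0.21 and 0.12), with 43.8% of them above 0 and 55.4% below.

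**Figure D2:**
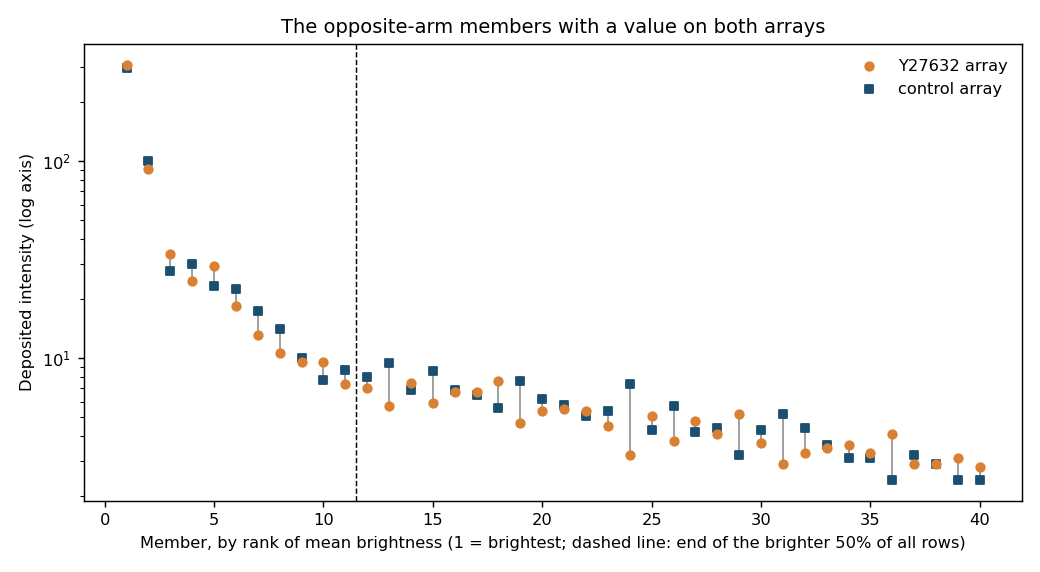
Deposited intensity (log axis) of the 40 members listed on both arrays, ordered by mean brightness, with circles for the Y27632 array and squares for the control array, 1 value each and no error bars. Member 1 stands at 307.6 and 296.9, and from member 12 on no value reaches 10.

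The 29 dimmer members scattered more. Their log2 ratios ran from −1.21 to 0.77, with an SD across members of 0.45, against 0.28 in the 11 brighter ones. Of the 29, 12 read higher on the Y27632 array, 16 lower and 1 the same, with a median log2 ratio of −0.04. The 230 other dimmer rows had a median of 0.05, with 127 above 0 and 93 below. The lowest listed value was 0.4 higher on the Y27632 array than on the control array. With 0.4 taken off every Y27632 value, the median log2 ratio was −0.20 over all 40 members listed on both arrays and −0.05 over the 479 other rows. A constant taken off moves the ratios of dim rows most. These members had a lower median intensity than these other rows (5.4 against 7.9 on the Y27632 array), and the sets were not matched for brightness.

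Among dimmer rows, more members were 1.5-fold lower than were 1.5-fold higher, and in the values as deposited the counts of the other rows ran the opposite way. At least 1.5-fold lower on the Y27632 array were 5 of the 29 members (17.2%), against 16 of the 230 other dimmer rows (6.96%). At least 1.5-fold higher were 2 members (6.90%), against 40 other dimmer rows (17.4%). Over all 519 rows of any brightness 5.20% were at least 1.5-fold lower and 8.67% at least 1.5-fold higher, and the same 5 and 2 members were those of the 40. With 0.4 taken off the Y27632 values the other rows turned to the members' direction: 7 of the 40 members were lower and 1 higher, against 37 of the 479 other rows lower and 25 higher. No test of that difference between the members and the other rows was possible, and they were not matched for brightness. The counts are small, and 1 of the 5 sat at the 1.5-fold limit, at 3.8 on the Y27632 array and 5.7 on the control array.

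The largest difference of any member, chosen here after its value was seen, was more than 2-fold. That member, ranked 24 in brightness, read 3.2 on the Y27632 array and 7.4 on the control array (log2 ratio −1.21). It was the only one of the 40 past 2-fold, against 0.578% of all 519 rows at least 2-fold lower and 2.5% at least 2-fold higher. The next 3 lower members read 2.9, 5.7 and 4.7 on the Y27632 array, against 5.2, 9.4 and 7.6 on the control array. The 2 members past 1.5-fold in the other direction read 4.1 and 5.2 on the Y27632 array, against 2.4 and 3.2 on the control array. The first of these 2 was no longer past 1.5-fold after a lowess correction (log2 ratio 0.579) or with a pseudocount of 3.0 (0.395), and the member ranked 24 was no longer past 2-fold with that pseudocount (−0.75). Of the 7 members past 1.5-fold as deposited, only the member ranked 24 stayed past it with that pseudocount. This follows from adding 3.0 to the values given above. Under the lowess correction only the first of the 2 higher members and the member ranked 24 were followed. How many of the rest stayed past 1.5-fold there is not known. All 7 members were at or below 9.4 on both arrays.

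**Figure D3:**
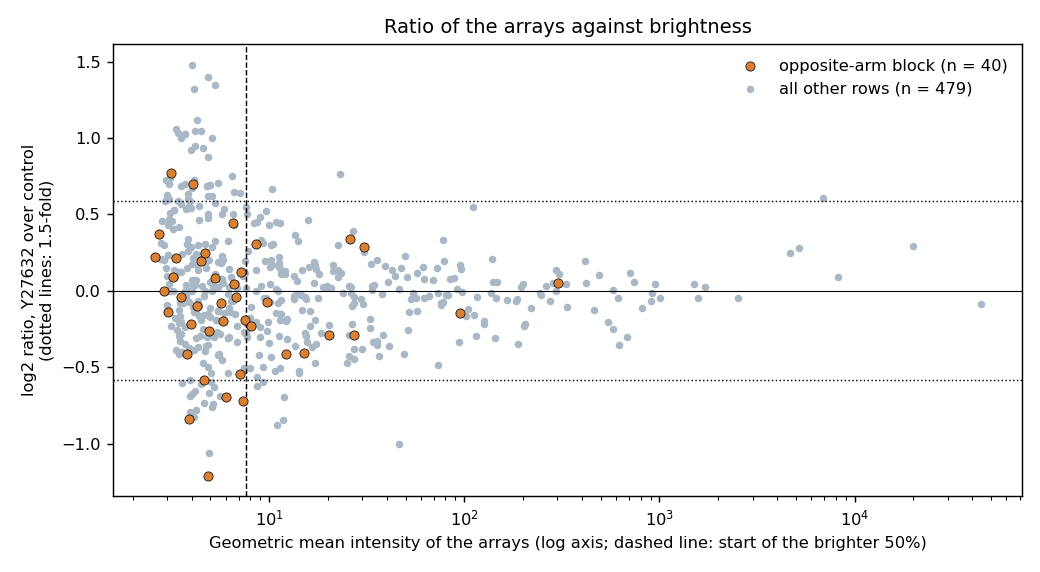
Log2 ratio of the Y27632 over the control array against geometric mean intensity (log axis) for the 40 members and the 479 other rows listed on both arrays, 1 point a row. Right of the dashed line at 7.57 the 11 members lie between −0.41 and 0.34, inside the dotted 1.5-fold lines, and left of it the 29 members spread from −1.21 to 0.77.

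Over all 40 members listed on both arrays, the median log2 ratio was −0.08 (quartiles −0.29 and 0.20), with 16 above 0, 23 below and 1 at 0. Over the 479 other rows it was 0.00 (quartiles −0.21 and 0.20), with 236 above 0, 231 below and 12 at 0. The SD across rows was 0.41 among the members and 0.39 among the other rows, and no error of the medians between arrays could be had. The order of brightness was shared by the arrays: Spearman's rho between them was 0.861 over the 40 members and 0.927 over the 479 other rows. It was 0.957 over the 11 brighter members and 0.972 over the 249 other brighter rows. Over the 29 dimmer members it was 0.661, and over the 230 other dimmer rows 0.402. These correlations run across probes, which share the 2 arrays and keep their own brightness on each.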

How the data were processed

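The authors deposited 1 intensity per probe and array, given to 1 decimal. A linear scale was judged from the range. How the authors corrected background, normalized, set a detection limit, and with which software, is not given in the sources used here. Per the labels' protocols, RNA was isolated with ISOGEN and labelled with a miRCURY kit. The number of arrays, 1 for each condition, limits the precision, and no background signal was among the values. The members and lists were chosen with earlier results of these data known. Rows with several accessions (5) were not members. Counts used a 1.5-fold limit within the brighter 50% of rows listed on both arrays. To be described singly were the 10 brightest members, the 5 largest ratios in each direction among the brighter ones, and the 3 brightest listed on 1 array alone, which are given by their range. Because unnamed accessions say little, 4 were printed, 2 with a ratio above 0 and 2 below. Family lists and marker lists were not evaluated, since 0 lines of the reference tables hold a MIMAT accession. The ratio rule was tested on simulated data, with noise set below the SD across the brighter rows here (0.27). That run checks the code and does not give the rule's error in these data. Tools were matplotlib 3.10.9, statsmodels 0.14.6, scipy 1.17.1, pandas 2.3.3 and numpy 2.4.6 under Python 3.11.15.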

Additional observations from a re-analysis of the deposited data

Results flagged for a closer look

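For 9 members the Y27632 array gave a value where the control array gave none, so no ratio was formed. They were flagged for a listed value with no listed control value beside it, and what an empty cell stands for is not known. They were 9.68% of the block, against 9.47% of the other rows, so their number is not a result about the block. They read between 2.8 and 4.4, where the lowest value of the Y27632 array was 2.7. The 13 members in the opposite situation (14.0% of the block, against 9.58% of the other rows) read between 2.3 and 6.5 on the control array.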

How the results depend on the processing

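In the brighter 50% of rows, 0 members were 1.5-fold higher and 0 lower. Those counts stayed at 0 and 0 under a lowess correction (fraction 0.4), quantile normalization and the row left out put back. They were also 0 and 0 with a pseudocount of 3.0, the brightest 25% of rows and a 2-fold limit. Those settings add no check, because a pseudocount draws every ratio toward no difference. The brightest 25% and the 2-fold limit only narrow a count that was already 0. Median centring moved no value. Without a filter on dim rows 2 members were higher and 5 lower. With missing values set to the lowest listed, 0 were higher and 3 lower, in a class that then held 24 members, against 13 higher and 17 lower of all 357 rows. All 24 had a value on both arrays, so those 3 were among the 5 lower members just counted and did not come from filled cells. Subtracting 0.4 from the Y27632 values, a choice made after seeing the data, gave 0 and 0 in the brighter class, and 1 higher and 7 lower without a filter, where all 519 rows gave 26 higher and 44 lower. That change, which moves dim rows most, took the median of all rows to −0.06 and of the 40 members to −0.20. The median of the 40 members was −0.15 after quantile normalization, −0.11 after lowess and −0.05 with the pseudocount. Quantile normalization took the ratio of MIMAT0004561 to −0.03. Putting in the row that names a block accession among several, also added later, changed none of these counts. The gap in share listed ran from −12.7 to −7.20 percentage points on the Y27632 array and from −6.84 to −4.22 on the control array against higher- or lower-numbered rows alone. For values of at least 10 it was −14.6 and −13.8. The members' median intensity was 0.684 to 0.764 times that of other rows on the Y27632 array and 0.732 to 0.874 times on the control array. Restriction to members whose opposite arm is on the array, and the comparison of arms, were not run for want of names. With single arrays, leaving out replicates was not possible. No paired analysis was possible because control and Y27632 cells each gave a single array.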
